A study of Homo sapiens with 6 samples.

Results

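CDK inhibitors and G1 cyclins were followed in MDA-MB-436 cells with and without silencing of MUC1. The 10 genes were listed by name as rows of the count table: the inhibitors CDKN1A, CDKN1B, CDKN1C, CDKN2A, CDKN2B and CDKN2C, and the cyclins CCND1, CCND2, CCND3 and CCNE1. They are 10 of 37887 rows, and all 10 were among the 15355 genes that passed the low-count filter. MDA-MB-436 is a cell line from a triple-negative breast cancer with mutated BRCA1. All cells in both groups carried a stable tetracycline-inducible shRNA against MUC1. The 3 control libraries came from cells given 0.1% DMSO, and the 3 shMUC1 libraries from cells given 500 ng/ml doxycycline (DOX) to switch the shRNA on. The sample titles call the controls control shRNA, whereas the treatment labels describe vehicle. Because DOX was given to the shMUC1 cells alone, an effect of DOX and an effect of the shRNA cannot be told apart. Whether the line is 1 clone, how long DOX was given, and whether the shMUC1 cells also received DMSO were not stated for these samples.

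Progression through G1 is driven by D-type cyclins, which bind CDK4 and CDK6, and then by E-type cyclins, which bind CDK2. These kinases phosphorylate RB1 and its relatives and so release E2F transcription factors. The INK4 inhibitors (CDKN2A, CDKN2B, CDKN2C and CDKN2D) block CDK4 and CDK6, whereas the CIP/KIP inhibitors (CDKN1A, CDKN1B and CDKN1C) act mainly on CDK2 complexes and also help D-type cyclins to assemble with their kinases. In breast epithelium CCND1 is a well-known oncogene.

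Library totals ran from 18678307 to 27825546 counts. MUC1 itself went from 4.24, 3.45 and 3.95 to 2.61, 1.98 and 1.83 CPM (counts per 1000000 counts of the library, after TMM scaling), a log2 fold change of -0.84 (SE 0.214, adjusted p = 0.00119). The epithelial markers KRT8, KRT18 and EPCAM were at 409 to 436, 127 to 135 and 2.71 to 4.02 CPM in control and at 811 to 840, 260 to 272 and 13.4 to 15.4 CPM in shMUC1 libraries, whereas the mesenchymal marker VIM was at 692 to 744 CPM in control and 395 to 445 CPM in shMUC1 libraries. The hormone receptors ESR1 and PGR were at no more than 0.645 and 0.164 CPM, ERBB2 at 38.4 to 47.3 CPM and the epithelial KRT19 at no more than 0.0912 CPM. The leukocyte marker PTPRC and the endothelial marker PECAM1 were at no more than 0.932 and 1.64 CPM. Mitochondrially encoded genes took from 3.35% to 4.17% of control and from 4.95% to 5.22% of shMUC1 counts. With these genes left out, CDKN1A was at 0.72, CCND2 at 1.19 and CCND1 at -0.30 on the log2 scale, and 7 of the 10 genes were again called higher and 1 lower. The part of the marker shifts in the results was not tested.

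Silencing was associated with higher expression of most inhibitors. Of the 10 genes, 7 were higher (CDKN1A, CDKN1B, CDKN1C, CDKN2A, CDKN2B, CCND2 and CCNE1) and 1, CCND1, was lower at an adjusted p under 0.05, and CDKN2C and CCND3 did not pass. Across all tested genes, 25.2% were higher and 23.6% lower by the same rule, so that a call in this contrast is common. With a fold change over 2 in addition, CCND2 alone passed, against 2.21% of all genes higher and 3.74% lower. In CPM, the shMUC1 libraries all lay above the controls for 8 of the 10 genes and all below for the other two, compared with 28.1% and 26.8% of all tested genes. The median log2 fold change was 0.22 over the 10 genes and 0.00058 over all tested genes. The median size of the change without its sign was 0.25 for the 10 genes and 0.24 for all genes. In bulk RNA a change in the share of cells in a cell cycle phase and a change in transcript level per cell cannot be told apart.

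**Figure D1:**
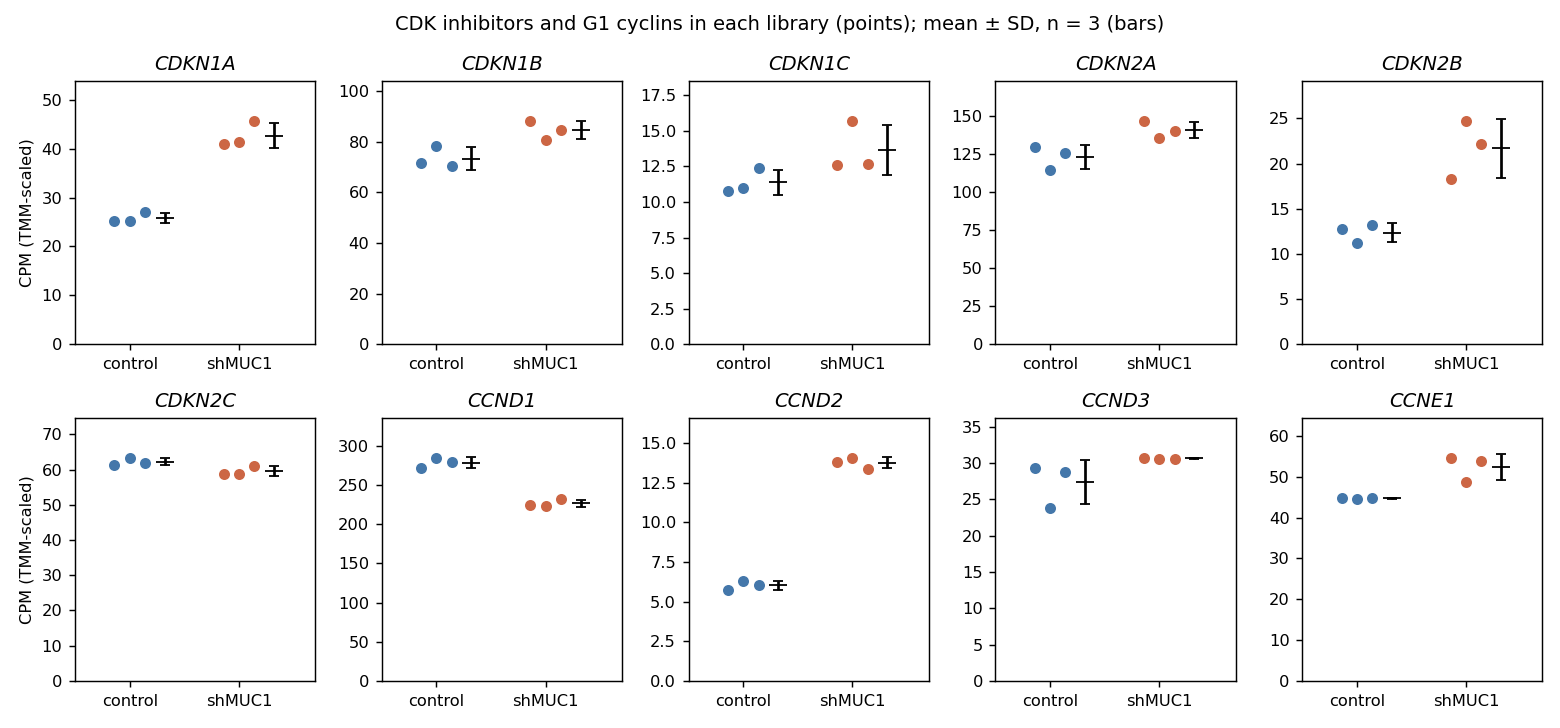
Each panel plots the CPM of 1 gene in the 3 control and 3 shMUC1 libraries as points, with the mean ± SD (n = 3) beside them. The axes start at 0. The groups do not overlap in any of the 10 panels, and the widest separation relative to the control level is that of CCND2, at 13.4 to 14.1 CPM against 5.75 to 6.32 CPM.

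Among the CIP/KIP inhibitors, CDKN1A, which encodes p21, changed the most. CDKN1A lies on chromosome 6 at 36676460 to 36687339 (GRCh38, plus strand). It was at 25.2, 25.2 and 27.0 CPM in control and at 40.9, 41.4 and 45.6 CPM in shMUC1 libraries. Every shMUC1 library exceeded the highest control by more than the whole range of the controls. Means were 25.8 ± 1.05 CPM and 42.7 ± 2.58 CPM (SD, n = 3), which is 0.72 on the log2 scale (SE 0.0688, adjusted p = 3.17e-11), or 1.65-fold. This change lay at percentile 95.4 of all tested genes.

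CDKN1B, which encodes p27, rose far less. It was at 71.4, 78.3 and 70.3 CPM in control and at 88.1, 80.8 and 84.8 CPM in shMUC1 libraries. The nearest libraries of the groups were 78.3 and 80.8 CPM, so the gap was smaller than the spread within either group. The log2 fold change was 0.21 (SE 0.0496, adjusted p = 0.000692). CDKN1C, the imprinted gene for p57, was the least certain of the rises. Its values were 10.8, 11 and 12.4 CPM in control and 12.6, 15.7 and 12.7 CPM in shMUC1 libraries. A single library, shMUC1 replicate 2, stood above the others, while the remaining pair of shMUC1 libraries lay just above the highest control. The log2 fold change of 0.26 (SE 0.11) had an adjusted p of 0.0462. It was 0.15 with an adjusted p of 0.334 without shMUC1 replicate 2, and the call was also lost without control replicate 1 (0.23, adjusted p = 0.136) and without control replicate 2 (0.24, adjusted p = 0.111). Over 15 alternatives its adjusted p ran from 0.032 to 0.334.

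The INK4 genes did not move alike. CDKN2B, which encodes p15, a textbook target of TGF-beta signaling, lies on chromosome 9 at 22002903 to 22009363 (GRCh38, minus strand). It was at 12.7, 11.2 and 13.2 CPM in control and at 18.2, 24.7 and 22.1 CPM in shMUC1 libraries. The shMUC1 libraries were uneven, with replicate 1 lowest, but all were above the controls. Means were 12.4 ± 1.06 CPM and 21.7 ± 3.25 CPM (SD, n = 3), which is 0.81 on the log2 scale (SE 0.104, adjusted p = 3.00e-08), or 1.75-fold, at percentile 96.4 of all tested genes.

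CDKN2A lies beside CDKN2B, at 21967753 to 21995301 on the same strand, and encodes p16 and, from another first exon, p14ARF. Counts per gene do not separate these products. CDKN2A was at 130, 114 and 126 CPM in control and at 147, 136 and 141 CPM in shMUC1 libraries. All shMUC1 libraries were above all controls, by a smaller proportion than for its neighbor. The log2 fold change was 0.20 (SE 0.0434, adjusted p = 0.000242). CDKN2C, which encodes p18, was at 61.4, 63.4 and 62.0 CPM in control and at 58.9, 58.9 and 61.1 CPM in shMUC1 libraries. Its libraries did not overlap, but the nearest pair (61.4 and 61.1 CPM) nearly met, and the log2 fold change of -0.06 (95% interval -0.17 to 0.04) did not pass (adjusted p = 0.317). The remaining INK4 gene, CDKN2D (p19), is outside the 10 and went the other way. It was at 5.29, 5.26 and 6.19 CPM in control and at 3.29, 4.19 and 4.73 CPM in shMUC1 libraries, a log2 fold change of -0.47 (SE 0.169, adjusted p = 0.0201). That call was lost without shMUC1 replicate 1 (-0.33, adjusted p = 0.149) or control replicate 3 (-0.40, adjusted p = 0.0906).

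CDKN2A and CDKN2B share sequence, since 31 of the 4550 distinct 50-base windows of CDKN2A transcripts (0.681%) are also in CDKN2B. The exons of CDKN2A also overlap those of the antisense gene CDKN2B-AS1 over 341 bases, and whether reads were counted by strand was not stated. CDKN2B-AS1 was at 9.14 ± 0.56 CPM in control and 8.73 ± 0.672 CPM in shMUC1 libraries (SD, n = 3), with no call (log2 fold change -0.06, adjusted p = 0.711).

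The promoters of the inhibitors with the largest rises are shown with both starts of CDKN2A, because the latter feed a single count. Each is the 300-base window from 250 bases before to 50 after an annotated start, taken from RefSeq on GRCh38.p14, printed 5′ to 3′ on the strand of the gene. Capitals mark GC boxes (GGGCGG, searched on both strands, so that CCGCCC marks the opposite strand, and adjoining boxes may overlap). The first is CDKN1A at chr6:36678464-36678763 (plus strand). The next is CDKN2B at chr9:22009256-22009555 (minus strand). The windows of CDKN2A are at chr9:21995275-21995574 for the start that gives p14ARF and at chr9:21974808-21975107 for the start that gives p16 (minus strand).
CDKN1A: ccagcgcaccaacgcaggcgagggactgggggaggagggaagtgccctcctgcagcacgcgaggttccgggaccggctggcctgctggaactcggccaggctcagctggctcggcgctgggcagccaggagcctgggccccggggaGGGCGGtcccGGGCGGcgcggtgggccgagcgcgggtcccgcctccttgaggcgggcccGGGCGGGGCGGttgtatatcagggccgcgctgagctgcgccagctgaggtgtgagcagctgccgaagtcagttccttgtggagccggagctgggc
CDKN2B: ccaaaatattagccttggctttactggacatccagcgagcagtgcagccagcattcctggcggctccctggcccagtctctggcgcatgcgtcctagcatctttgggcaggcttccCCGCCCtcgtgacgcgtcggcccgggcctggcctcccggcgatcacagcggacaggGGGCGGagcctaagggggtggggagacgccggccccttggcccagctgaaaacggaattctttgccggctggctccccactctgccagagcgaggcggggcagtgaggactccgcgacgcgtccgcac
CDKN2A, p14ARF start: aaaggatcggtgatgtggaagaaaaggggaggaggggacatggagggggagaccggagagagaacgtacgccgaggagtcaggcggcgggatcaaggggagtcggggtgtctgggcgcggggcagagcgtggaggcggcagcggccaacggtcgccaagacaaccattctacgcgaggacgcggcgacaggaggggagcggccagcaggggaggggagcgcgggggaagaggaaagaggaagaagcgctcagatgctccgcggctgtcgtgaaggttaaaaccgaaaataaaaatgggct
CDKN2A, p16 start: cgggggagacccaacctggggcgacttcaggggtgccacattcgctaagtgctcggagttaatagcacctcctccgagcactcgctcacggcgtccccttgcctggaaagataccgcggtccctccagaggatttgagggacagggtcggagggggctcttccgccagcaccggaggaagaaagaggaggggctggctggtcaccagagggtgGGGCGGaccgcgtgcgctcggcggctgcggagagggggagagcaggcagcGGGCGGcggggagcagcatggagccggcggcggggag

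The CDKN1A window held 4 GC boxes, the CDKN2B window 2, the p16 window 2 and the p14ARF window 0, and 45.0% of 35116 promoter windows hold at least 1. Genes with a small rise or no call had them as well. The CCNE1 window held 7 and the CDKN1B window 1. Windows of CDKN2C held 0, 6 and 1, and those of CCND3 held 5, 4 and 0. None of the 12 windows that matched 7 of the 10 genes held a TATA box (TATAAA, in 11.5% of all windows) or an E2F word (TTTCCCGC, TTTCGCGC or TTTGGCGC, in 2.74%), and an E-box (CACGTG, in 7.26%) was found only in windows of CDKN2C. CDKN1C, CCND1 and CCND2 had no entry.

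**Figure D2:**
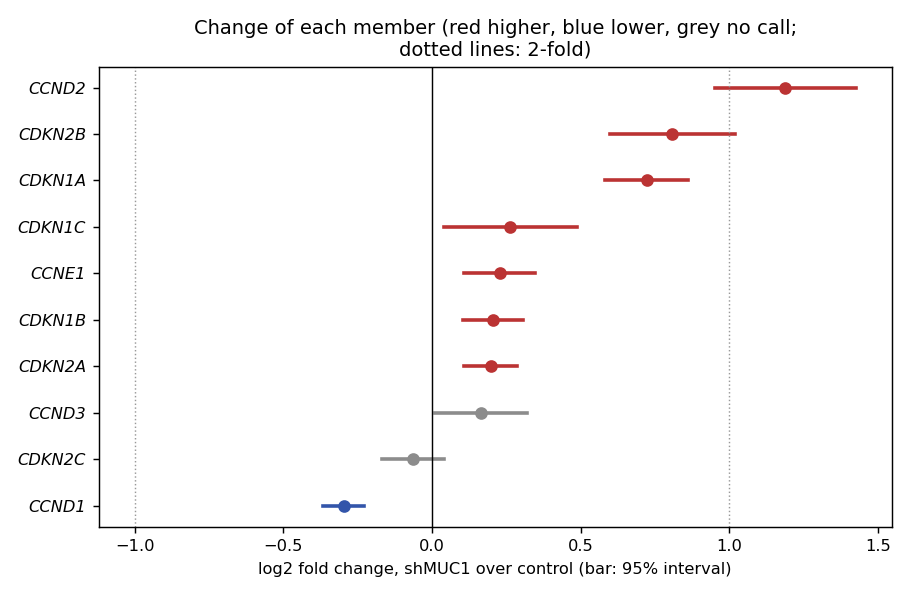
The log2 fold change of shMUC1 over control is plotted for each of the 10 genes with its 95% interval, with genes called higher in red, lower in blue and not called in grey. CCND2, at 1.19, is the only estimate past the dotted 2-fold line, CDKN2B and CDKN1A follow at 0.81 and 0.72, and CCND1 is the only call on the left, at -0.30.

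The D-type cyclins went in opposite directions. CCND1, by far the most abundant of them, lies on chromosome 11 at 69641087 to 69654474 (GRCh38, plus strand). It was at 271, 284 and 279 CPM in control and at 225, 224 and 232 CPM in shMUC1 libraries. The spread within each group was small beside the gap between 232 and 271 CPM. Means were 278 ± 6.75 CPM and 227 ± 4.39 CPM (SD, n = 3), which is -0.30 on the log2 scale (SE 0.0338, adjusted p = 2.22e-09), or 0.814 of the control level. Larger falls were common, and this one lay at percentile 23.6 of all tested genes.

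CCND2, on chromosome 12 at 4273772 to 4305350 (GRCh38, plus strand), was the least abundant of the 10 genes per length and the one that rose the most. It was at 5.75, 6.32 and 6.04 CPM in control and at 13.8, 14.1 and 13.4 CPM in shMUC1 libraries. The groups were tight and more than 2-fold apart in every pairing of libraries. Means were 6.04 ± 0.288 CPM and 13.8 ± 0.341 CPM (SD, n = 3), which is 1.19 on the log2 scale (SE 0.117, adjusted p = 7.03e-11), or 2.28-fold, at percentile 98.4 of all tested genes. Behind these values lie 126, 154 and 156 counts in control and 382, 362 and 249 counts in shMUC1 libraries. The annotated gene AC008012.1 shares 989 exon bases (13.8%) with CCND2 on the same strand, so the count depends in part on how reads in that stretch were assigned. Of the 7106 distinct 50-base windows of CCND2 transcripts, 940 (13.2%) are also in AC008012.1 or CCND2P1.

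CCND3 was at 29.4, 23.9 and 28.8 CPM in control and at 30.7, 30.6 and 30.6 CPM in shMUC1 libraries. Control replicate 2 was low, the other two controls were close to the shMUC1 libraries, and the log2 fold change of 0.16 (95% interval 0.0086 to 0.32) did not pass after adjustment (adjusted p = 0.075). Without control replicate 2 it was 0.08 (adjusted p = 0.478), and without control replicate 1 it was 0.22 (adjusted p = 0.039). CCND1 overlaps LTO1 on the opposite strand over 497 exon bases (10.3%). LTO1 was at 11.8 ± 0.212 CPM in control and 10.5 ± 1.98 CPM in shMUC1 libraries (SD, n = 3), with no call (log2 fold change -0.16, adjusted p = 0.281).

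CCNE1, which encodes cyclin E1 and is itself an E2F target, was at 44.7, 44.6 and 44.8 CPM in control and at 54.6, 48.6 and 53.9 CPM in shMUC1 libraries. Controls were almost identical, while shMUC1 replicate 2 sat between them and the other shMUC1 libraries. The log2 fold change was 0.23 (SE 0.0584, adjusted p = 0.00136). CCNE2, its paralog, was at 25.1 ± 2.33 CPM in control and 26.4 ± 1.81 CPM in shMUC1 libraries (SD, n = 3). Its log2 fold change of 0.07 (95% interval -0.09 to 0.24) did not pass (adjusted p = 0.484), and whether the cyclin E genes differ from each other in their change was not tested.

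To compare genes with each other, CPM were divided by the length in kilobases of the longest coding transcript (CPM per kb). In control cells the order from high to low was CDKN2A (96.0), CCND1 (64.6), CDKN1B (27.6), CCNE1 (21.9), CDKN2C (21.4), CCND3 (11.4), CDKN1A (11.4), CDKN1C (5.88), CDKN2B (3.16) and CCND2 (0.932). CCND3 and CDKN1A overlapped in their ranges over 3 libraries, and every other gene was separated from the next. In shMUC1 cells CDKN1A (18.8) stood above CCND3 (12.8) with no overlap, and the rest of the order was the same. The order depends on the length used, and not at its top alone. With the union of exons, CDKN1A (8.45) was already above CCND3 (4.72) in control cells with no overlap. CDKN2C (18.8) was then above CCNE1 (17.5) in control cells. With the union of exons, CCND1 (57.6) led CDKN2A (28.5), since the longest coding transcript of CDKN2A holds 1283 bases against 4329 in all its exons.

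CCND1 held a smaller share of the D-type cyclins, and the other two a larger share, in every shMUC1 library. As a share of length-scaled D-type counts, CCND1 held 82.7%, 85.8% and 83.3% in control and 77.7%, 77.7% and 78.3% in shMUC1 libraries. CCND2 held 1.17%, 1.27% and 1.20% in control and 3.18%, 3.24% and 3.01% in shMUC1 libraries. CCND3 held 16.1%, 12.9% and 15.5% in control and 19.1%, 19.1% and 18.6% in shMUC1 libraries. Groups did not overlap for any of the D-type shares. The differences were -6.04 percentage points for CCND1, 1.93 for CCND2 and 4.10 for CCND3. Without division by length the CCND2 difference was 3.14 points and the CCND3 difference 2.52 points, and with union exon lengths the CCND3 difference was 2.29 points. For each, the exact two-sided permutation p was 0.1, the smallest that 3 against 3 libraries allow, so that this design cannot reach 0.05. CCND1 remained the main D-type transcript in every library.

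The CIP/KIP share of the CDK inhibitors was higher in every shMUC1 library. Together the CIP/KIP genes held 27.1% ± 1.60 of length-scaled inhibitor counts in control and 29.8% ± 0.432 in shMUC1 libraries (SD, n = 3), a difference of 2.65 percentage points (exact permutation p = 0.1). CDKN1A went from 6.87% to 9.71%, CDKN2B from 1.91% to 2.87% and CDKN2C from 13.0% to 10.6%, each without overlap between the groups. The shares of CDKN1B (16.7% in control and 16.4% in shMUC1) and CDKN1C (3.56% and 3.65%) overlapped. Of the CIP/KIP genes, CDKN1A alone gained share without overlap. CDKN2A held 58.0% ± 2.09 and 56.7% ± 1.14 (SD, n = 3), which overlapped (exact permutation p = 0.5). The size of these shares depends on the length used. With the union of exons, CDKN2A was at 28.5 and CDKN1B at 26.1 CPM per kb in control cells. With the longest coding transcript they were at 96.0 and 27.6. The CIP/KIP difference ranged from 1.96 to 3.53 points over 9 alternatives. Across the 10 shares computed, the smallest p after Benjamini-Hochberg adjustment was 0.143.

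**Figure D3:**
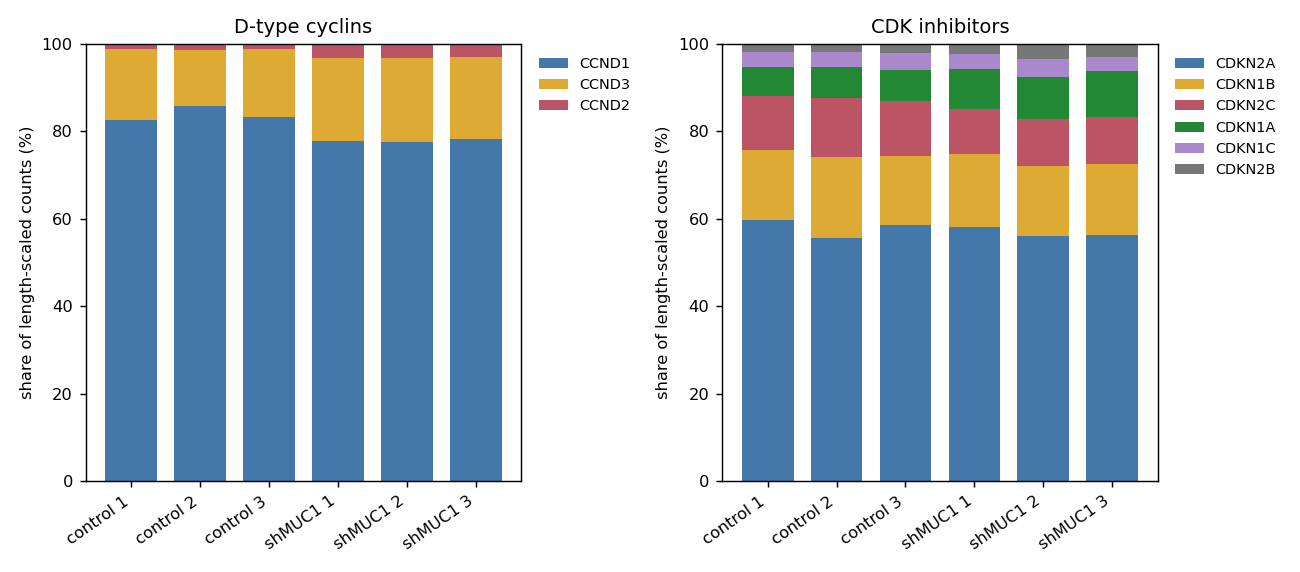
Stacked bars give, for each library, the percent of length-scaled counts held by each D-type cyclin (left) and each CDK inhibitor (right). The CCND1 segment is shorter in all 3 shMUC1 libraries (77.7% to 78.3%) than in any control (82.7% to 85.8%), and the CDKN2A segment overlaps between the groups.

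**Figure D4:**
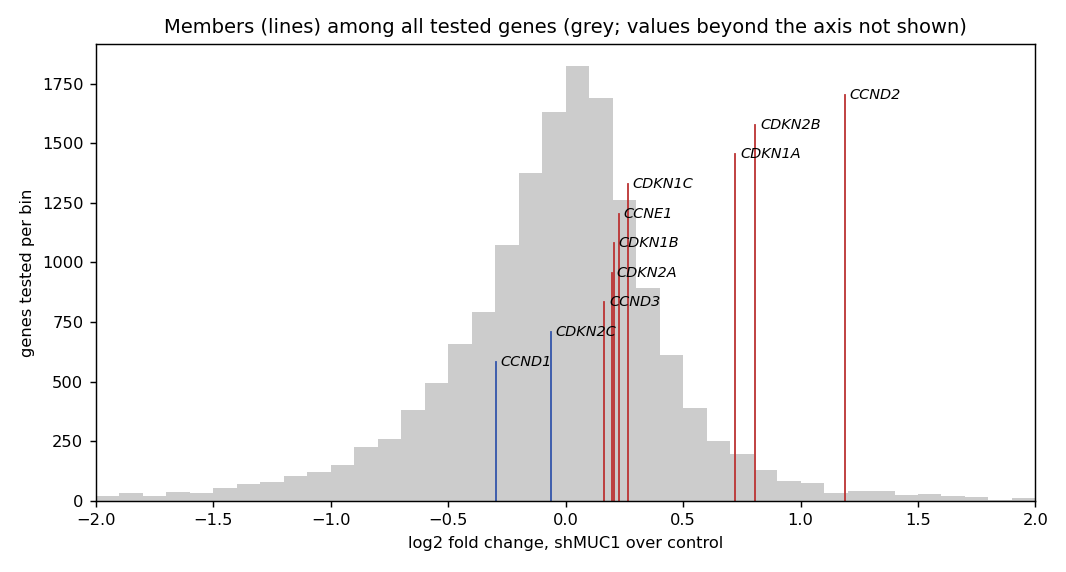
Grey bars count all tested genes by log2 fold change in bins of 0.1, and lines mark the 10 genes. CDKN1A, CDKN2B and CCND2 stand in the right-hand tail at percentiles 95.4, 96.4 and 98.4, and the other 7 lie within the bulk of the distribution, between percentiles 23.6 and 78.3.

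The partners of these genes were examined from 9 lists, which hold 108 other genes of the G1 pathway, of which 106 were tested, and 8 of the lists are described here. In all, 38 were higher and 24 lower, or 35.8% and 22.6%, compared with 25.2% and 23.6% of all tested genes. The counts of each list below are to be read beside the same shares of all genes. The median log2 fold change over the 106 genes was 0.06.

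Of the 8 G1 kinases and their activators, 1 was higher and 2 were lower. CDK6, a partner of D-type cyclins, was at 276, 315 and 284 CPM in control and at 251, 240 and 236 CPM in shMUC1 libraries, a log2 fold change of -0.27 (SE 0.0388, adjusted p = 3.52e-07). It was lower in every shMUC1 library, as CCND1 was. CDK4 had a log2 fold change of -0.02 (95% interval -0.12 to 0.09) and CDK2 of 0.10 (95% interval 0.0031 to 0.20), and neither passed (adjusted p of 0.823 and 0.0821). CDC25A, the phosphatase that activates CDK2, rose by 0.34 (adjusted p = 2.42e-07). CCNH, the cyclin of the CDK-activating kinase, fell by 0.26 (adjusted p = 0.00775), a call that was lost without control replicate 2 (-0.21, adjusted p = 0.0514).

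The pocket proteins, which bind E2F factors, were all called and in different directions. RBL1 (p107) showed the largest change of the list. It was at 50, 42.0 and 42.8 CPM in control and at 18.3, 18.8 and 15.5 CPM in shMUC1 libraries, a log2 fold change of -1.35 (SE 0.08, adjusted p = 9.25e-17). RB1 had means of 23.1 ± 2.36 and 18.4 ± 0.912 CPM (SD, n = 3), which is -0.33 on the log2 scale (adjusted p = 0.0018). RBL2 (p130), the pocket protein of resting cells, had means of 66.3 ± 1.17 and 81.6 ± 1.32 CPM (SD, n = 3), which is 0.30 on the log2 scale (adjusted p = 1.34e-06). All shMUC1 libraries were below the controls for RBL1 and RB1 and above them for RBL2.

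Of 10 E2F and DP factors, 5 were higher, 1 was lower and 4 did not pass, with a median log2 fold change of 0.15. E2F2, an activator, rose by 0.49 (SE 0.0809, adjusted p = 3.44e-06) and E2F8, an atypical repressor, by 0.31 (SE 0.0642, adjusted p = 0.000131). E2F4, the main E2F of resting cells, fell by 0.23 (SE 0.0459, adjusted p = 5.22e-05). E2F1 was higher by 0.14 (adjusted p = 0.0363), a call that was lost in 7 of 15 alternatives, among them the fits without control replicate 1 or 2 and without shMUC1 replicate 1 or 2 (adjusted p from 0.0579 to 0.176).

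Among 22 genes that E2F factors switch on at S phase entry, 11 were higher and 3 lower, with a median log2 fold change of 0.10. The replication factors GINS1 and CDT1 rose by 0.53 and 0.35 (adjusted p of 1.81e-11 and 5.14e-06). POLA1, a subunit of DNA polymerase alpha, fell by 0.43 and CCNA2, the S phase cyclin, by 0.22 (adjusted p of 1.26e-08 and 0.000219). Of 6 tested genes of the MuvB complex and its partners, 1 was higher, MYBL2 by 0.20 (adjusted p = 0.000129), and 3 were lower. The DNA-binding subunit LIN54 fell by 0.24 and the kinase DYRK1A, which promotes assembly of the repressive DREAM form, by 0.13 (adjusted p of 0.000482 and 0.00242). LIN37 was not tested, having no more than 15 counts in a library.

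Of 14 genes that control turnover of G1 proteins, 5 were higher and 2 lower. FBXO4 and FBXO31, F-box proteins reported to target cyclin D1, rose by 0.59 and 0.33 (adjusted p of 0.000188 and 1.23e-05). AMBRA1, an adaptor for degradation of D-type cyclins, fell by 0.15 and CUL4A by 0.09 (adjusted p of 0.0305 and 0.0356). The AMBRA1 call was lost without control replicate 1 or any of the shMUC1 libraries (adjusted p from 0.0525 to 0.157), and the CUL4A call without control replicate 3 or shMUC1 replicate 1 or 2 (adjusted p from 0.081 to 0.212). SKP2, which marks p27 for degradation, had a log2 fold change of -0.05 (95% interval -0.11 to 0.0193) and did not pass (adjusted p = 0.245).

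Among 23 upstream regulators of CDK inhibitors, 8 were higher (34.8%) and 6 lower (26.1%), with a median log2 fold change of 0.03. Across all tested genes, 25.2% were higher and 23.6% lower. BMI1, the Polycomb protein known as a repressor of the CDKN2A locus, was at 83.7, 86.3 and 80.8 CPM in control and at 52.0, 51.9 and 49.9 CPM in shMUC1 libraries, a log2 fold change of -0.70 (SE 0.0499, adjusted p = 1.39e-14). SMAD2, a mediator of TGF-beta signaling, fell by 0.52 (SE 0.035, adjusted p = 2.90e-15). FOXO1, a factor known to act on CDKN1B, rose by 0.52 (SE 0.0964, adjusted p = 2.17e-05). MYC, known as a repressor of CDKN1A and CDKN2B, was at 81.2, 84.3 and 86.7 CPM in control and at 114, 115 and 108 CPM in shMUC1 libraries, a log2 fold change of 0.42 (SE 0.0436, adjusted p = 3.26e-10). MYC and both of these inhibitors were higher in every shMUC1 library.

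**Figure D5:**
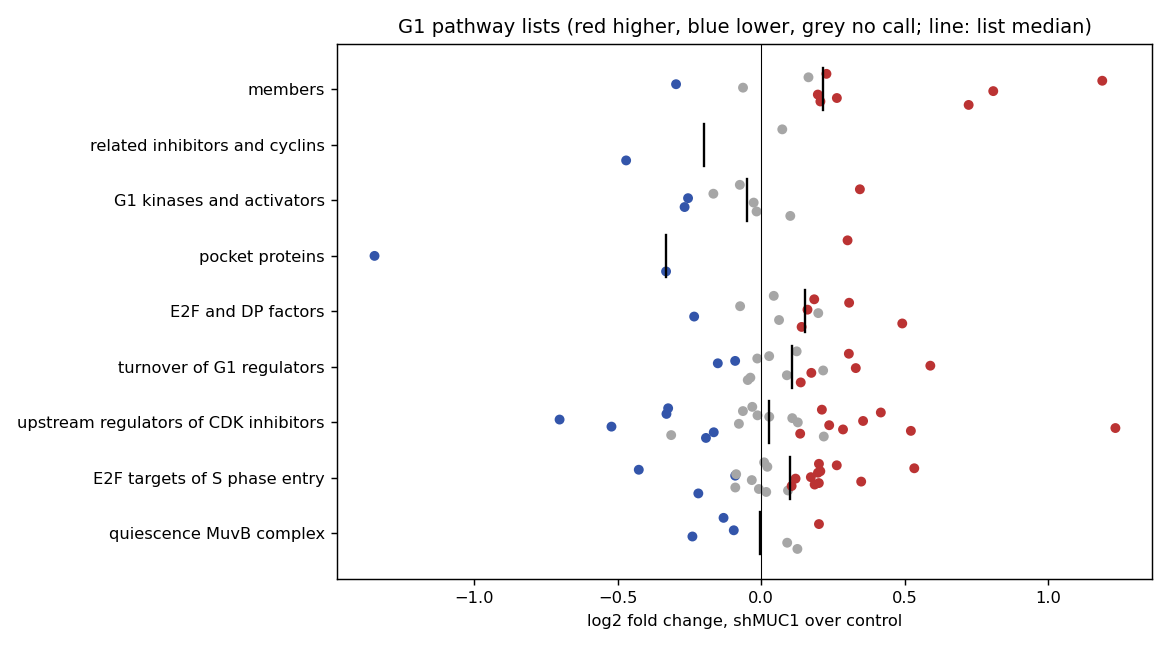
Each point is the log2 fold change of 1 tested gene, in rows for the 10 genes (members) and 8 pathway lists, with genes called higher in red, lower in blue and not called in grey, and the list median as a black line. The pocket proteins span from -1.35 to 0.30, and the medians of the 10 genes and of the E2F and DP factors are at 0.22 and 0.15.

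Sequence matches were examined last, for a word that went with lower expression in these libraries. The 7-base word ATCAGTA was chosen from those earlier results, so its counts by call are not an independent test. It occurs in an annotated 3′ UTR of 22.0% of 3257 genes called lower, of 9.43% of 3639 genes called higher and of 12.8% of all 13023 tested genes with such a UTR. None of the 10 genes carries it (0 of 10), CCND1 included. In the pathway lists the word was in 12 of 24 lower, 6 of 38 higher and 5 of 44 uncalled genes. The median length of the longest 3′ UTR was 2170 bases in the lower, 1400 in the higher and 1167 in the uncalled genes, and the part of length in these counts was not tested. MUC1 carries the word as well, in 1 of 23 coding transcripts with a 3′ UTR. Besides CDK6, RBL1 and RBL2, the pathway genes named above that carry it are SMAD2, LIN54, DYRK1A and CUL4A, all called lower, and FOXO1, called higher. The sites of CDK6, RBL1 and RBL2 are printed because these genes are direct partners of the G1 cyclins and inhibitors, with the word in capitals and 11 bases on either side (5′ to 3′, GENCODE 29, GRCh38).
CDK6: atgagtagcacATCAGTAattcagtagac
RBL1: atatttaatacATCAGTAaaatagctgct
RBL2: ttgtaaattgaATCAGTAtaaacaaagtt

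CDK6 and RBL1 were lower and RBL2 was higher in shMUC1 cells. The shRNA sequence was not used here, and whether its seed matches the word was not tested.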

How the data were processed

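RNA-seq libraries were made from poly(A) RNA with a stranded kit. The table that the authors deposited holds unscaled read counts for each gene symbol and library. The submitters' processing notes name CASAVA 1.8.2, STAR 2.7.9a, featureCounts, DESeq2 1.24.0 and GRCh38.p7. The annotation release and strand setting are not given in the sources used here. Groups came from the sample titles. Cells were cultured in triplicate. Whether the cultures came from separate experiments is not given for these libraries, so p-values measure the spread between cultures, which may be technical.

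The main test was edgeR 4.0.16 quasi-likelihood (R 4.3.3), with TMM scaling, filterByExpr and group as the only term, two-sided, with Benjamini-Hochberg adjustment over 15355 genes. Every adjusted p in the text is from this test unless another tool is named. CPM used TMM-scaled library sizes. SE came from the F statistic. The test was checked on simulated data. Positions, lengths and 3′ UTRs were from GENCODE 29, in which 98.1% of rows matched by symbol. Shares of length-scaled counts were compared by exact permutation (scipy 1.17.1).

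The genes, the lists and the word were chosen with earlier results of these data known. Genes named were the 10, MUC1, RB1, CDK2, CDK4, CDK6, CCNE2, CDKN2D, MYC, E2F1, SKP2, genes overlapping the 10, and the 2 called genes that rose most and the 2 that fell most in each list, from 100 mean counts up. Lists were written from general knowledge, and 1 list and some genes named by the rule are not reported here. Among values from 1 to 20, from 68.8% to 70.5% were even, as counting both reads of a pair could give, and halved counts were tried. Other alternatives were other scalings, filters, DESeq2 1.42.0, limma-voom (limma 3.58.1), a replicate block, each library left out, mitochondrially encoded genes left out and other lengths.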

Additional observations from a re-analysis of the deposited data

How the results depend on the processing

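Of the 10 genes, CDKN1A, CDKN1B, CDKN2A, CDKN2B, CDKN2C, CCND1, CCND2 and CCNE1 changed neither sign nor call in all 15 alternatives run for each. CCND2 ranged from 1.16 to 1.22 on the log2 scale, CDKN2B from 0.70 to 0.93, CDKN1A from 0.68 to 0.75 and CCND1 from -0.32 to -0.28. CDKN1C lost its call with library totals only (0.24, adjusted p = 0.07), with a mean of at least 50 counts (0.24, adjusted p = 0.0635), with DESeq2 (0.26, adjusted p = 0.0828), with limma-voom (0.26, adjusted p = 0.0544) and with a replicate block (0.26, adjusted p = 0.0518), and ranged from 0.15 to 0.33 when a library was left out, with the lowest value without shMUC1 replicate 2. CCND3 ranged from 0.0755 to 0.22 when a library was left out. CDK4, which was not called, turned from -0.02 to 0.0163 without shMUC1 replicate 2, within a range from -0.0482 to 0.0163. The causes were not tested.

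A fold change over 1.5 gave 3 of the 10 genes as higher by construction, and 846 higher and 1280 lower genes in all. Requiring 50 counts on average left 12212 genes tested instead of 15355. It gave 177 higher and 275 lower genes past 2-fold, against 339 and 575. The differences in make-up kept their sign in 9 of 9 alternatives each. From -6.04 points, the CCND1 difference ranged from -6.65 to -4.50, the CCND2 difference ranged from 1.88 to 3.14, the latter without division by length, and the CCND3 difference from 2.29, with union exon lengths, to 4.74. Over all alternatives the median of all genes lay between -0.0217 and 0.00053 on the log2 scale.

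Deviations of libraries that share a number had correlations of 0.021, -0.019 and -0.035 over 12212 genes, so no pairing by number was seen. These values cannot show how the cultures were set up. With a replicate block, 6 of the 10 genes were higher and 1 lower. CCND2, with 126 to 382 counts per library, had the lowest mean count of the 10 genes.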

Other observations

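Cyclins and cyclin-dependent kinases outside the 10 genes and the pathway lists leaned the other way from the inhibitors. The family was taken by symbol after the values of the 10 genes had been seen. It also held CDK-like kinases and the phosphatase CDKN3. Of 35 tested genes, 16 were lower and 1 was higher, compared with 23.6% and 25.2% of all tested genes. Of the 17 cyclins, 8 were lower and 1 was higher. Of the 15 cyclin-dependent kinases 6 were lower, as were both CDK-like kinases, and CDKN3 had no call. The cyclins CCNA1, CCNG2, CCNJ and CCNT2 had log2 fold changes of -1.15, -0.85, -0.71 and -0.44 (edgeR adjusted p of 9.90e-08, 4.71e-09, 6.48e-08 and 1.48e-08). CCNG2, an unconventional cyclin linked to cell cycle arrest, went from 18.6 to 10.3 CPM, with all shMUC1 libraries below all controls. CDK13 and CDK12, kinases of RNA polymerase II, had log2 fold changes of -0.40 and -0.17 (edgeR adjusted p of 4.21e-08 and 0.000377). CCNY alone was higher, by 0.40 (edgeR adjusted p = 5.57e-08).

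The mitotic genes CDK1 and CCNB1 were at 166 and 541 CPM in control and at 165 and 551 CPM in shMUC1 libraries, with log2 fold changes of -0.0021 and 0.03 (edgeR adjusted p of 0.969 and 0.514). Related cyclins were not all flat. CCNF was called lower (-0.18, edgeR adjusted p = 0.0177). CCNB2 was below all controls in every shMUC1 library without a call (-0.11, edgeR adjusted p = 0.0512). CCNB3 was at 0.38, also without a call (edgeR adjusted p = 0.0712). CDKN3, a phosphatase of CDK2 that is not an INK4 or CIP/KIP inhibitor, was at 104 and 105 CPM with no call (edgeR adjusted p = 0.844).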
